A study of Mus musculus with 10 samples.

Results

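Of the 55487 genes in the count tables of a mouse ES cell to blood differentiation series, 39801 are absent from the matrix of stage scores that was deposited with them. Described here are the 28 of these genes whose RNA stood higher at the blood stages HE2 and HP than at the stages before. They were chosen by their measured levels, in CPM, the count of a gene scaled to the library total. Each HE2 and HP library had to reach 0.5 CPM, and the smaller of the HE2 and HP means had to be at least 2.5 times the mean of each of ES, HB and HE1. The difference between HE2 or HP and the stages before is therefore a condition of the choice, is given as a description and was not tested. The same CPM rule was met by 322 of the 15686 genes of the matrix.

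Nuclear RNA was sequenced from HM-1 cells, a single mouse ES cell line, and from populations purified during differentiation in serum, with 2 libraries for each of 5 stages. ES cells were undifferentiated. Haemangioblast cells (HB) were FLK1+ cells purified from embryoid bodies after 3 d. Haemogenic endothelium and progenitors came from a further 2.5 d of blast culture and were sorted as KIT+ TIE2+ CD41- (HE1), KIT+ TIE2+ CD41+ (HE2) and KIT+ TIE2- CD41+ (HP) cells, so that CD41 and TIE2 protein separate the groups by design. Counts per library lay between 24920434 and 58782055, and 1 count is between 0.0170 and 0.0401 CPM. The authors call the libraries of a stage independent biological replicates, and a p-value measures the spread between them.

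The stage labels were checked against marker genes. Among these, Itga2b encodes CD41, Kdr encodes FLK1 and Kit encodes KIT, which are antigens of the sorts, so that their lists are no independent check. The summed CPM of 6 ES markers was 2021 and 1941 (ES), 147 and 101.9 (HB), 44.02 and 106 (HE1), 20.5 and 9.20 (HE2), 11.3 and 10.2 (HP). Those of early blood progenitors, a list of 7 genes led by Itga2b, summed to 182 and 189.6 (ES), 230.5 and 210.3 (HB), 437 and 307 (HE1), 1215 and 1699 (HE2), 1708 and 1534 (HP). ES markers were thus lower at each later stage, but higher in HE1 replicate 2 than in HE1 replicate 1, with Pou5f1 at 29.7 and 2.69 CPM. Without HE1 replicate 2 the rule was met by 31 genes outside the matrix. Progenitor markers were high in all HE2 and HP libraries.

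Markers of other lineages differed in level in the late libraries. The 6 erythroid markers, with Hbb-bh1 the most abundant, summed to 6.96 and 5.82 (ES), 22.8 and 19.97 (HB), 514 and 296 (HE1), 2168 and 1634 (HE2), 4590.0 and 2599.9 (HP) CPM, and 5 of them met the rule. The 6 megakaryocyte markers, led by Itgb3, summed to 39.3 and 38.5 (ES), 28.5 and 28.7 (HB), 136 and 125 (HE1), 1148 and 1436 (HE2), 1641 and 1269 (HP) CPM, and 3 met the rule. Both lists were higher in each HE2 and HP library than in any earlier library. The 6 macrophage markers summed to 13.7 and 14.4 (ES), 8.09 and 6.10 (HB), 8.87 and 19.5 (HE1), 27.1 and 19.8 (HE2), 36.9 and 40.7 (HP) CPM, with Cd68 the most abundant and Fcgr1 and C1qa under 1 CPM in every library, and 2 of the 6 met the rule. Of 5 mast cell markers Ms4a2, Fcer1a and Cma1 were under 1 CPM in every library and 1 met the rule. The sum of these 5, mostly Gata2, was 3.84 and 4.23 (ES), 68.5 and 80.5 (HB), 89.4 and 60.5 (HE1), 64.8 and 59.5 (HE2), 53.1 and 40.9 (HP) CPM. The 5 smooth muscle and stromal markers, led by Acta2, summed to 136 and 149 (ES), 117 and 107 (HB), 924 and 1989.9 (HE1), 1096 and 754 (HE2), 1394 and 777 (HP) CPM, and none of the 5 (0) met the rule. The 7 haemogenic endothelium markers, which include Kit and were led by Cdh5 over the stages together, summed to 339.6 and 354 (ES), 347 and 296 (HB), 3068 and 2177 (HE1), 2071 and 1403 (HE2), 831 and 829 (HP). In ES most of that sum was Kit (157 and 165 CPM) and Pecam1 (151 and 157 CPM), while Cdh5 was under 1 CPM. The 8 HB markers, led by Kdr, summed to 15.9 and 16.9 (ES), 2060.1 and 2383 (HB), 1452 and 997 (HE1), 1290.3 and 1046 (HE2), 825 and 847 (HP). In bulk libraries such as these, fewer cells of a kind and less RNA per cell cannot be told apart, which holds for each level below. The part of these lineages in the results was not tested.

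A gene annotation holds far more than messenger RNA genes. Long non-coding RNAs (lncRNAs) are transcripts, often spliced, without a long reading frame, some of which are host transcripts from which a microRNA hairpin is cut. Pseudogenes are copies of genes that are no longer intact, and TEC entries mark stretches with cDNA evidence and no settled gene model. Nuclear RNA also contains transcripts whose introns have not been removed, so that an entry placed inside an intron on the same strand can collect fragments of its host transcript.

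The 28 entries held 10 lncRNAs, 7 microRNAs, 6 pseudogenes and 5 TEC entries, and 0 entries of the protein-coding class. In the matrix, 99.8% of the genes and 322 of the 322 that met the rule were protein coding. Of the genes outside the matrix, 2814 reached 0.5 CPM in all 4 late libraries, and 0.995% of these met the rule. In the matrix, 12665 genes reached it and 2.54% met the rule. Among 4973 other genes outside the matrix that reached 0.5 CPM in both libraries of a stage, 41 (0.824%) were protein coding. Of the same genes 6.72% were microRNAs, against 25.0% of the 28. The shares of lncRNAs were 30.5% and 35.7%, those of pseudogenes 30.6% and 21.4%, those of TEC entries 21.6% and 17.9% and those of other classes 9.25% and 0%. These shares are descriptions with no test.

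Late levels of the 28, taken as the smaller of the HE2 and HP means, ran from 0.603 to 427 CPM with a median of 2.25 CPM, against a median of 9.26 CPM for the 322 matrix genes. Per kilobase of exon the medians were 1.44 and 3.27 CPM. HE1 was the highest of the 3 early stages in 20 of the 28 (71.4%) and in 234 of the 322 (72.7%). All late libraries stood above all early libraries in 27 entries, and the exception was Gm47305. Just inside the fold limit of the rule were Mir8116 at a ratio of 2.57, Gm45606 at 2.72 and Gm47305 at 2.73. Just outside it, all at 2.41, were 5430401H09Rik, Gm29113 and Mir7676-1. By their lowest late library, Gm20488 at 0.541 CPM, Serpinb10 at 0.638 CPM and Mir8116 at 0.638 CPM were just inside, and Gm45757 was tied with Serpinb10 and Mir8116. Just outside were Gm11342 at 0.453 CPM, Gm25749 at 0.439 CPM and I730030J21Rik at 0.406 CPM.

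**Figure D1:**
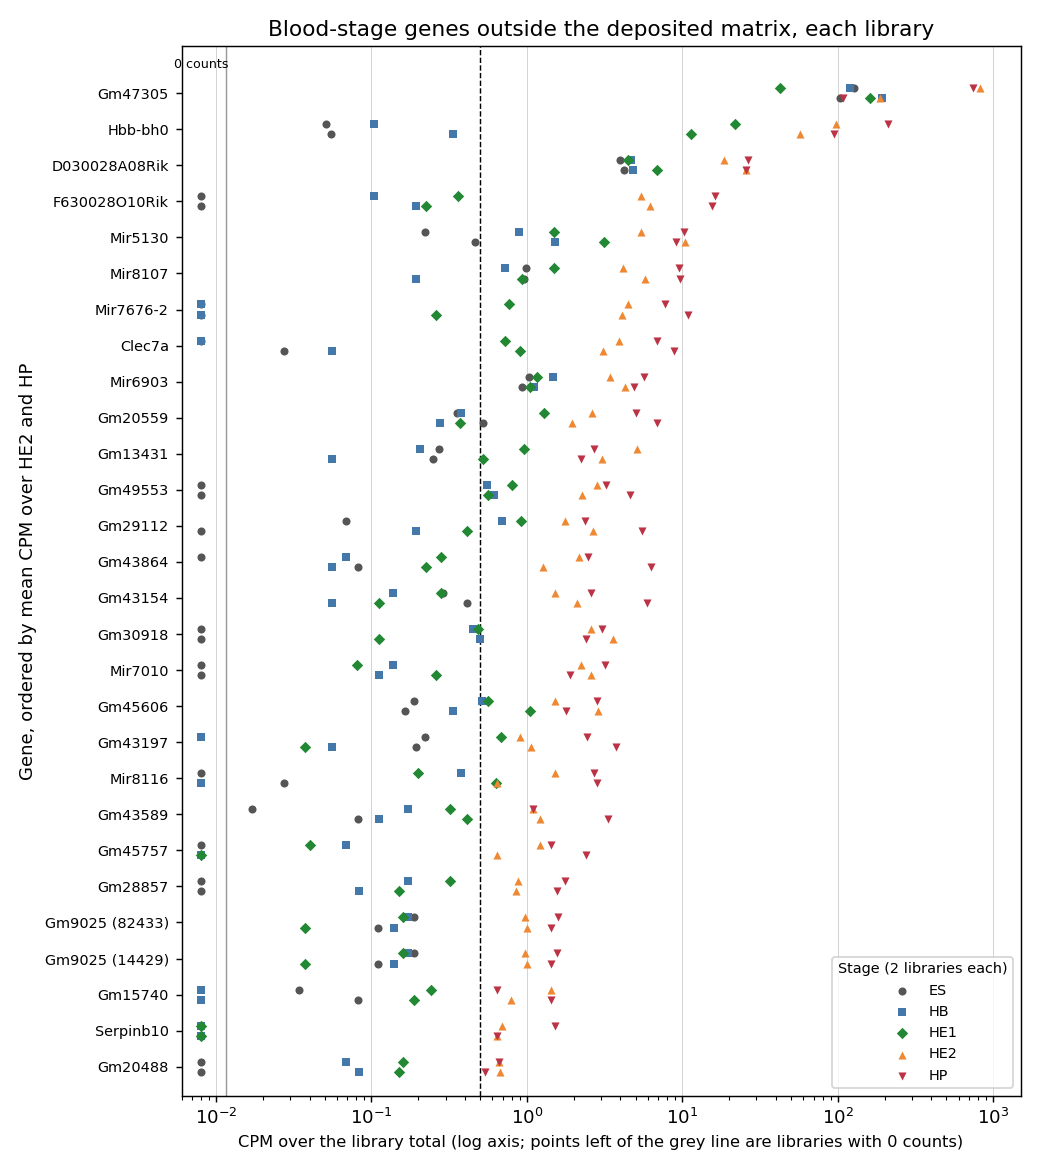
CPM of each of the 28 entries (rows) in each of the 10 libraries on a log axis, with 1 point per library coloured by stage, the dashed line at 0.5 CPM and libraries with 0 counts drawn left of the grey line. All HE2 and HP points lie to the right of the dashed line, as the rule requires, and Gm47305 is the entry in which early and late points overlap.

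Genes with a known place in blood cells were Hbb-bh0, Clec7a and Serpinb10. Hbb-bh0 is a pseudogene of the β-globin cluster, with 129 bases of exon at chr7:103850020-103850148 (GRCm38), 1601 bp from the embryonic globin gene Hbb-y on the same strand. Its CPM were 0.0510 and 0.0549 (ES), 0.103 and 0.333 (HB), 21.8 and 11.4 (HE1), 96.8 and 56.9 (HE2), 209 and 94.2 (HP). The late libraries were above the HE1 libraries and those above the HB and ES libraries. Hbb-y itself had 0.119 and 0.137 (ES), 0.344 and 0.444 (HB), 53.05 and 33.5 (HE1), 204 and 99.6 (HE2), 414 and 126 (HP) CPM, with the same order of stages. Per kilobase, the late means were 886 CPM for Hbb-bh0 and 333 CPM for Hbb-y. The 129 bases are fewer than a fragment usually holds, so that the level per kilobase of Hbb-bh0 is overstated. Globin genes are alike in sequence, which leaves the source of its fragments uncertain.

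Clec7a encodes Dectin-1, the β-glucan receptor of myeloid cells, and is classed as a polymorphic pseudogene in the annotation used here. It had 0 and 0.0274 (ES), 0 and 0.0555 (HB), 0.722 and 0.896 (HE1), 3.90 and 3.07 (HE2), 6.92 and 8.82 (HP) CPM. The HE1 libraries stood above ES and HB and below HE2, and HP was highest. The nearest matrix gene, the C-type lectin gene Clec1a 9591 bp away, had 0.0170 and 0 (ES), 0.792 and 0.222 (HB), 13.3 and 14.8 (HE1), 5.26 and 0.699 (HE2), 0.310 and 1.69 (HP) CPM and peaked in HE1. Serpinb10, which encodes the serine protease inhibitor bomapin of blood cells, also is classed as a polymorphic pseudogene. It had 0 counts in all 6 early libraries and 0.695 and 0.638 CPM in HE2 and 1.51 and 0.642 in HP. Against a floor of 3 counts over the libraries of a stage it was at least 11.5-fold higher. The 4 late libraries held 23, 21, 68 and 19 counts. It shares 291 of its 3490 exon bases with Serpinb2 on the same strand, and fragments there were counted on both.

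F630028O10Rik, at chrX:96239926-96243636 on the plus strand, is the host transcript of miR-223, a microRNA of granulocytes and monocytes. The 110 bases of the Mir223 hairpin lie in its exon. Its CPM were 0 in both ES libraries, 0.103 and 0.194 (HB), 0.361 and 0.224 (HE1), 5.41 and 6.20 (HE2), 16.2 and 15.5 (HP). The late libraries were far above all early ones, and both HP libraries were above both HE2 libraries. With a ratio of 19.8 it had the largest ratio of the 28 with early means floored at 3 counts. The Mir223 hairpin itself had 0 counts in all 6 early libraries, 0.272 and 0.273 CPM in HE2 and 0.820 and 0.811 in HP, and did not reach 0.5 CPM in each late library. These counts are of fragments of long RNA over the hairpin locus and are no measure of mature microRNA. The nearest matrix gene lay 62542 bp away, the farthest but for Gm30918 and the Gm9025 entries. The mature sequences are shown, from RefSeq on GRCm38.p6, because they are the product of this transcript, with the seed (bases 2 to 8) in capitals, at chrX:96242842-96242864 and chrX:96242884-96242905 on the plus strand.
mmu-miR-223-5p: cGUGUAUUugacaagcugaguug
mmu-miR-223-3p: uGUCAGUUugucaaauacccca

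All 6 microRNA entries on the microRNA list lay inside a matrix gene on the same strand that met the same rule. Mir7676-2 lies with all of its 62 bases in an exon of Csf2rb, the receptor chain shared by interleukin 3, interleukin 5 and GM-CSF. It had 0 in both ES libraries, 0 in both HB libraries, 0.762 and 0.261 (HE1), 4.50 and 4.07 (HE2), 7.74 and 10.9 (HP) CPM. Csf2rb had 0.0340 and 0.110 (ES), 1.03 and 0.721 (HB), 9.79 and 5.56 (HE1), 76.7 and 77.8 (HE2), 121 and 187 (HP) CPM, and in both the HE1 libraries were above HB and the late libraries above HE1. Mir5130 lies with all of its 84 bases in an exon of Kctd12, an auxiliary subunit of GABA-B receptors, and had 0.221 and 0.466 (ES), 0.895 and 1.53 (HB), 1.48 and 3.14 (HE1), 5.44 and 10.5 (HE2), 10.3 and 9.16 (HP) CPM. Its host had 11.01 and 12.6 (ES), 26.6 and 33.4 (HB), 58.1 and 37.8 (HE1), 190.0 and 359 (HE2), 357 and 276 (HP) CPM. In both, the lowest late library was above the highest early one.

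Exon overlap was smaller in the other hairpins. Mir8107 shares 22 of 117 bases with an exon of Nbeal2, which is needed for platelet α-granules, and had 0.987 and 0.960 (ES), 0.723 and 0.194 (HB), 1.48 and 0.934 (HE1), 4.17 and 5.74 (HE2), 9.51 and 9.73 (HP) CPM. Mir6903 shares 6 of 88 bases with Atp2b4, a plasma membrane calcium pump, and had 1.04 and 0.933 (ES), 1.48 and 1.11 (HB), 1.16 and 1.05 (HE1), 3.44 and 4.25 (HE2), 5.70 and 4.90 (HP) CPM. Mir7010 shares 1 of 63 bases with Gucy1a1, a subunit of soluble guanylate cyclase, and had 0 in both ES libraries, 0.138 and 0.111 (HB), 0.0803 and 0.261 (HE1), 2.23 and 2.58 (HE2), 3.17 and 1.89 (HP) CPM. In each of these the late libraries were above the early ones. Mir8116 shares no exon base with Ache, the acetylcholinesterase gene in whose body it lies, and had 0 and 0.0274 (ES), 0.379 and 0 (HB), 0.201 and 0.635 (HE1), 1.51 and 0.638 (HE2), 2.68 and 2.84 (HP) CPM. Its lowest late library, HE2 replicate 2, hardly differed from HE1 replicate 2. The late to early ratios were 8.37, 3.44, 4.10, 2.97, 14.1 and 2.57 in the order in which the hairpins are named, against 10.1, 5.72, 4.02, 2.53, 10.4 and 4.07 in their host genes. Per kilobase of exon the late level of a hairpin was 1.93 to 6.91 times that of its host. Each hairpin is shorter than a usual fragment, which is counted whole wherever it overlaps, so that the level per kilobase is overstated. Fragments of the host transcript and of a hairpin transcript of its own cannot be told apart.

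The 7 mature sequences that RefSeq (GRCm38.p6) lists for the 6 hairpins are shown so that their seeds can be compared, with bases 2 to 8 in capitals. They come from chr15:78348599-78348621 and chr15:78348639-78348660 (plus strand), chr14:102982608-102982631 (minus), chr9:110636065-110636085 (minus), chr1:133726619-133726640 (minus), chr3:82106284-82106305 (minus) and chr5:137293800-137293820 (plus). With those of miR-223 they hold 9 different seeds, so that no 2 share one.
mmu-miR-7676-5p: aGGGCAGUaugauggccucugau
mmu-miR-7676-3p: uCCGGUGCucacucugcccaca
mmu-miR-5130: cUGGAGCGcgcgggcgaggcaggc
mmu-miR-8107: uGGAAACUaguggcugggaca
mmu-miR-6903-5p: uUGGGAAAagcaguacuuacca
mmu-miR-7010-5p: cGGAAAGGauugggaaacuuga
mmu-miR-8116: aAGGAUCCggggcuaguuggc

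A further 5 entries lay in the body of a matrix gene on the same strand without sharing exon with it, and all 5 hosts met the rule. Gm49553, a TEC entry in Grap2, the gene of the T cell adaptor GADS, had 0 in both ES libraries, 0.551 and 0.610 (HB), 0.803 and 0.560 (HE1), 2.81 and 2.25 (HE2), 3.22 and 4.60 (HP) CPM. Gm29112 in Ikzf2, which encodes the Ikaros family factor Helios, had 0.0680 and 0 (ES), 0.688 and 0.194 (HB), 0.923 and 0.411 (HE1), 1.75 and 2.67 (HE2), 2.35 and 5.54 (HP) CPM. Gm43864, a TEC entry, had 0 and 0.0823 (ES), 0.0688 and 0.0555 (HB), 0.281 and 0.224 (HE1), 2.17 and 1.28 (HE2), 2.46 and 6.29 (HP) CPM. Their late libraries were above their early ones, and HP replicate 2 was the highest in each of the 3. Gm43589, in Med12l, had between 1.09 and 3.31 CPM in the late libraries and at most 0.411 CPM before. Gm15740, a processed pseudogene in Mctp1, had between 0.643 and 1.42 CPM and at most 0.241 CPM before.

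Per kilobase, Gm49553, Gm29112, Gm43589 and Gm15740 stood far below the exons of their hosts. The late means were 1.65 CPM for Gm49553 and 20.5 CPM for Grap2 and 0.883 and 16.4 CPM for Gm29112 and Ikzf2. They were 1.10 and 11.5 CPM for Gm43589 and Med12l, and 0.827 and 8.45 CPM for Gm15740 and Mctp1. Whether the fragments belong to the unspliced host transcript or to a transcript of their own cannot be told apart in these tables. For Gm15740, fragments of the gene from which the pseudogene was copied can also contribute, which was not tested.

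Entries close to, or partly over, a matrix gene that met the rule were Gm13431, Gm45757 and Gm20488. Gm13431, a lincRNA 7492 bp from Ptgs1, the cyclooxygenase 1 gene, on the same strand, had 0.272 and 0.247 (ES), 0.207 and 0.0555 (HB), 0.963 and 0.523 (HE1), 5.13 and 3.04 (HE2), 2.68 and 2.23 (HP) CPM. It was highest in HE2 replicate 1, and both HE2 libraries were above both HP libraries. Gm45757, a TEC entry 731 bp from the adhesion receptor gene Adgrg3, held 3 counts in the 6 early libraries together and 1.21 and 0.638 CPM in HE2 and 1.42 and 2.40 in HP. Gm20488 shares 1453 of its 2996 exon bases with Medag and had the lowest late level of the 28, between 0.541 and 0.668 CPM. Medag was also low, with late means of 1.11 CPM in HE2 and 0.915 CPM in HP.

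On the opposite strand of a matrix gene lay 3 entries, which the strand-specific counting kept apart from it. D030028A08Rik, a spliced transcript of 6269 exon bases, was the most abundant of these. Its CPM were 3.95 and 4.23 (ES), 4.65 and 4.83 (HB), 4.45 and 6.87 (HE1), 18.5 and 25.7 (HE2), 26.5 and 25.9 (HP). All late libraries were at least 2.69 times the highest early library. Per kilobase, its late level was 3.85 CPM, against 2.96 CPM for Gm28857 and 0.803 CPM for Gm45606. Gm28857, antisense to AA986860, had between 0.851 and 1.75 CPM in the late libraries, and Gm45606, antisense to the amino acid transporter gene Slc43a2, between 1.51 and 2.86 CPM. The ratios of late to early levels were 3.67 and 2.72, and those of the sense genes 1.85 and 1.14, which missed the rule.

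Over 10 kb from any matrix gene, besides F630028O10Rik, lay Gm30918, Gm43154, Gm20559, Gm43197 and the Gm9025 entries. Gm30918, a lincRNA 228675 bp from Rreb1, had 0 in both ES libraries, 0.447 and 0.499 (HB), 0.482 and 0.112 (HE1), 2.57 and 3.58 (HE2), 3.06 and 2.40 (HP) CPM. Gm43154, a lincRNA of 23 exon blocks 41209 bp from Podxl, had 0.289 and 0.412 (ES), 0.138 and 0.0555 (HB), 0.281 and 0.112 (HE1), 1.51 and 2.10 (HE2), 2.59 and 5.95 (HP) CPM. In both, the late libraries were the highest. Gm43197 lies within the body of Gm20559 on the same strand without sharing exon, near Samd9l on chromosome 6, and the pair are not independent. Gm20559 had 0.357 and 0.521 (ES), 0.379 and 0.277 (HB), 1.28 and 0.373 (HE1), 2.63 and 1.94 (HE2), 5.01 and 6.89 (HP) CPM, and Gm43197 between 0.906 and 3.72 CPM in the late libraries. Both HP libraries were above both HE2 libraries in each. Gm9025, a processed pseudogene, stands in the tables under 2 identifiers that share 1571 bases and had nearly the same counts, so that the 28 entries are 27 loci. It had 0.187 and 0.110 (ES), 0.172 and 0.139 (HB), 0.161 and 0.0373 (HE1), 0.966 and 1.00 (HE2), 1.57 and 1.42 (HP) CPM.

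Gm47305, classed as a microRNA of 70 bases at chr12:69361270-69361339, lies wholly within Rn7s2 on the same strand, a gene of 7SL RNA, the RNA of the signal recognition particle. It had 126 and 104 (ES), 121 and 192 (HB), 42.5 and 162 (HE1), 823 and 187 (HE2), 745 and 108 (HP) CPM. HE2 replicate 1 and HP replicate 1 stood far above the rest, while HE2 replicate 2 and HP replicate 2 were within the range of the early libraries. Rn7s2 had 156 and 131 (ES), 150.4 and 239 (HB), 56.6 and 187 (HE1), 1036 and 229 (HE2), 798 and 134 (HP) CPM and a ratio of 2.39, just below the rule. Rn7s1, another 7SL gene, had 93.4 and 125 (ES), 80.9 and 309.5 (HB), 28.8 and 81.4 (HE1), 112 and 441 (HE2), 157 and 71.3 (HP) CPM and was highest in HE2 replicate 2. Copies of 7SL are nearly identical, and the assignment of fragments to one of them is uncertain. Without HE2 replicate 1, HP replicate 1 or HB replicate 1 Gm47305 did not meet the rule. The summed CPM of the 28 was 997 and 335 in HE2 with it and 175 and 147 without it.

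The levels of neighbouring genes were not used by the rule. The nearest matrix gene met the same CPM rule for 16 of the 28 entries (57.1%), against 68 of the 4973 other expressed genes outside the matrix (1.37%). On the same strand the shares were 15 of 28 (53.6%) and 1.61%. Of the 13 entries that overlapped their nearest matrix gene on the same strand, wholly or in part, that gene met the rule for 12, and the exception was Serpinb10. Serpinb2, which Serpinb10 overlaps only in part, had 0.0510 and 0 (ES), 0 in both HB libraries, 0 in both HE1 libraries, 0.362 and 0.425 (HE2), 0.843 and 0.406 (HP) CPM. Its late to early ratio was 15.4, and it missed the rule only by its level in the late libraries. Of the 7 entries over 10 kb from a matrix gene, 0 had a neighbour that met the rule. Shares over the other genes were not computed for these 13 and 7 entries, so that no contrast is read from them. Within 10 kb of a matrix gene the shares were 16 of 21 (76.2%) and 36 of 3607 (0.998%). Exon bases were shared with a matrix gene on the same strand in 7 of 28 (25.0%) and 482 of 4973 (9.69%), and without these 7 the share with a neighbour meeting the rule was 10 of 21 (47.6%) against 1.43%. Fragments on shared bases were counted for both genes, and fragments in an intron cannot be assigned to host or entry, so that an entry and an overlapping neighbour may not be separate measurements. Seen from the other side, 16 of the 84 expressed genes outside the matrix next to a matrix gene meeting the rule were among the 28 (19.05%), and 16 of the 322 matrix genes (4.97%) were nearest to one. With Gm9025 counted once and Gm47305 left out, a choice made after seeing the data, 16 of 26 (61.5%) had such a neighbour.

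**Figure D2:**
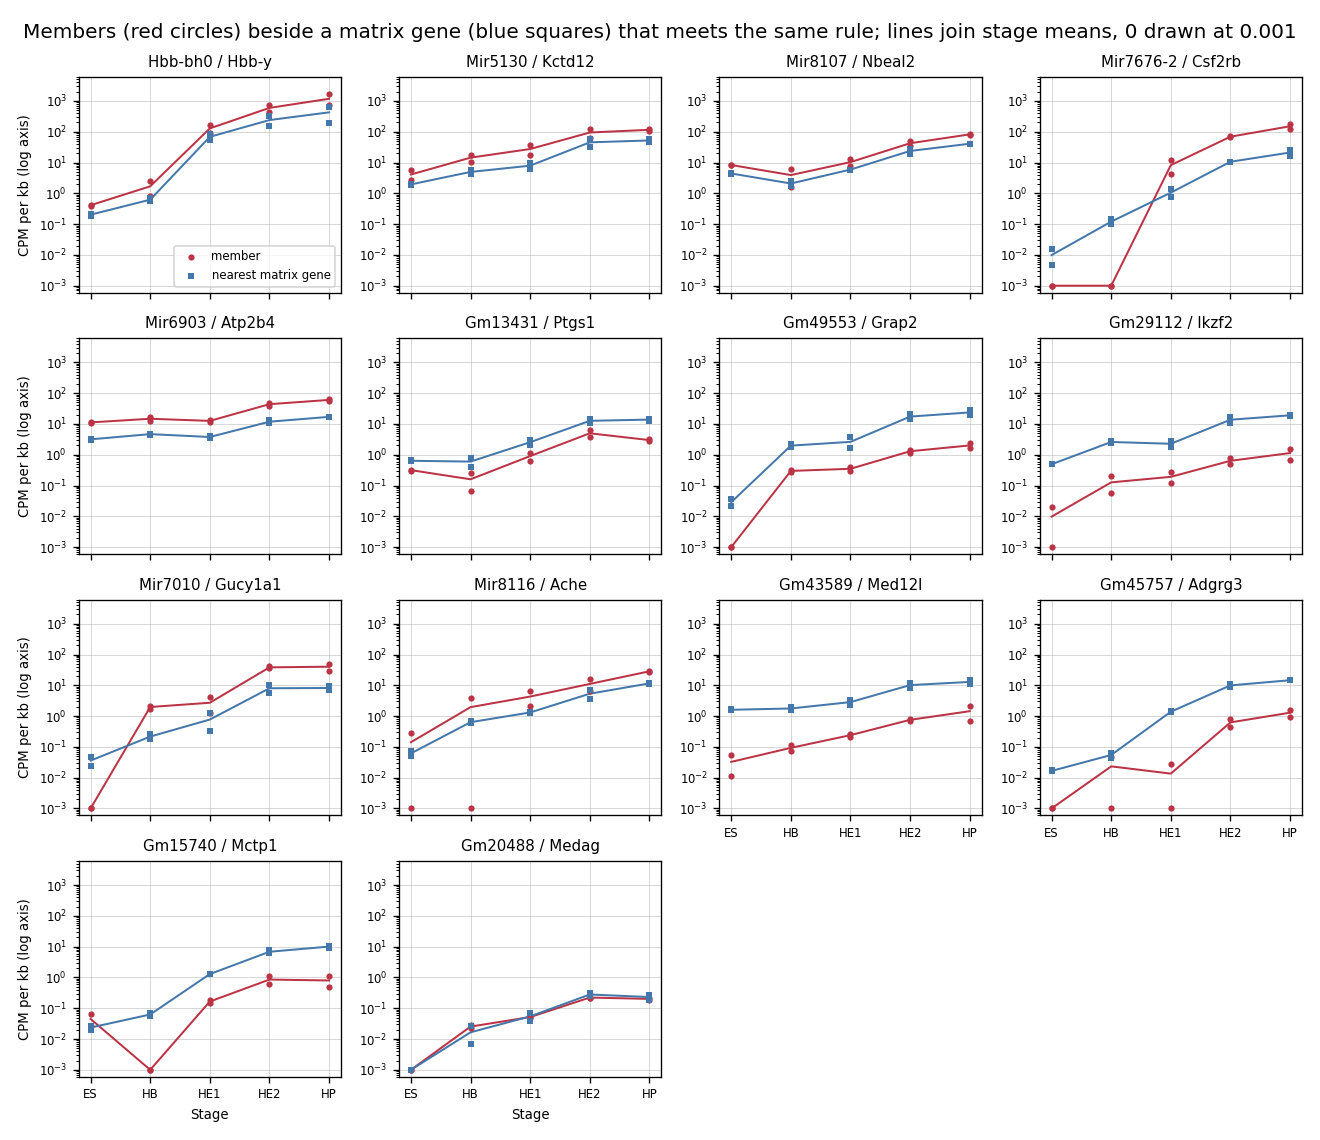
CPM per kilobase of exon (log axis) at each stage for 14 of the 16 entries whose nearest matrix gene met the same rule, with 1 panel per pair, 1 point per library, lines through the stage means and 0 drawn at 0.001. The microRNA hairpins and Hbb-bh0 lie above their neighbour in the late stages, where levels of such short features are overstated, and the other entries lie below it.

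Changes between stages that the rule does not set against each other were tested in a model of all 10 libraries, over 22596 genes that passed the filter on low counts. All 28 entries passed it, but they were chosen to be high at the late stages, which can carry a gene through it. HB against ES asks which of them changed at the first step of differentiation. With the filter and the fit on the 4 ES and HB libraries alone, 10 of the 28 passed the filter, so that 18 passed only with the help of other stages. Of the 10, edgeR's quasi-likelihood test at an adjusted p under 0.05 and at least 2-fold called 3 as higher in HB, Gm49553, Gm30918 and Mir5130, and 1 as lower, Gm43154. Over the 20729 genes tested there, 14.8% were called as higher and 21.2% as lower. In the model of all 10 libraries 8 entries were called as higher and 0 as lower, where 11.5% and 17.3% of all tested genes were. As most of the 28 entered it through other stages, nothing is read from that number, and tests are given only for entries that passed the filter on the 4 libraries. Log2 fold changes, SEs and adjusted p-values below are from the model of all 10 libraries unless stated.

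Changes of entries with 0 counts in both ES libraries are given as bounds against 3 counts over the ES libraries. Gm49553 was at least 18.4-fold higher in HB (adjusted p = 2.76e-04, edgeR) and Gm30918 at least 15.03-fold (adjusted p = 0.00193, edgeR). In both, the HB and HE1 values overlapped. Mir5130 was higher as well (edgeR, log2 fold change 1.80 ± 0.55 (SE), adjusted p = 0.0233). Gm43154, called as lower with the 4 libraries alone (edgeR, log2 fold change -1.90 ± 0.59 (SE), adjusted p = 0.0274), was not called in the model of all 10 (edgeR, log2 fold change -1.93 ± 0.75 (SE), adjusted p = 0.0642). The call of Mir5130 was lost by limma-voom and without ES replicate 1 or HB replicate 2. Of the nearest matrix genes of these 4 entries, Grap2 (edgeR, log2 fold change 5.94 ± 0.60 (SE), adjusted p = 3.46e-05) and Kctd12 (edgeR, log2 fold change 1.27 ± 0.35 (SE), adjusted p = 0.0147) were called as higher. Rreb1 beside Gm30918 (edgeR, log2 fold change 0.33 ± 0.22 (SE), adjusted p = 0.269) was not called, and Podxl beside Gm43154 (edgeR, log2 fold change 0.95 ± 0.16 (SE), adjusted p = 0.001004) differed in the other direction and missed the 2-fold limit. Of the entries that did not pass, F630028O10Rik, Gm28857, Mir7010 and Gm20488 had 0 counts in ES and 10, 8, 8 and 5 counts in the HB libraries together, and Gm29112 had 4 and 27. Others that did not pass were lower in HB. Gm43197 had 20 counts in ES and 2 in HB, Gm13431 had 25 and 8, and Gm15740 had 5 and 0. For Gm15740 the bound is only at least 1.26-fold lower.

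HE1 against HB asks what changed on the way to the first haemogenic endothelium, and shares the HB libraries with the comparison above. With the filter and the fit on the 4 HB and HE1 libraries alone, 14 of the 28 passed the filter, and edgeR called 3 of them as higher, Hbb-bh0, Clec7a and Gm13431, and 0 as lower. Over the 19543 genes tested there, 13.4% were called as higher and 7.98% as lower. In the model of all 10 libraries, where 12.7% and 8.19% of all tested genes were called, there were 5 entries as higher and 0 as lower, and again nothing is read from that number. Hbb-bh0 (edgeR, log2 fold change 6.15 ± 0.69 (SE), adjusted p = 1.59e-04) changed beside Hbb-y (edgeR, log2 fold change 6.74 ± 0.75 (SE), adjusted p = 1.45e-04). Clec7a had 42 counts in HE1 against 2 in HB, a ratio of 26.4 with an exact 95% interval of 6.88 to 226 that covers counting error only (adjusted p = 0.00186, edgeR). Gm13431 also rose (edgeR, log2 fold change 2.52 ± 0.68 (SE), adjusted p = 0.0178). With the 4 libraries alone it hardly passed the threshold (edgeR, log2 fold change 2.53 ± 0.86 (SE), adjusted p = 0.0490). The nearest matrix genes of these 3, Hbb-y, Clec1a and Ptgs1, were called as higher. The call of Gm13431 was lost without HB replicate 2 or HE1 replicate 1. Mir7676-2 and Gm15740 did not pass the filter on the 4 libraries and had 0 counts in HB and 26 and 11 counts in the HE1 libraries together. Lower in HE1, among entries that did not pass, was Gm9025, with 10 counts in HB and 5 in HE1 under each identifier. Gm45757 had 2 and 1, both under the floor of 3 counts, from which no direction is read.

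HP against HE2 asks whether levels differed between the late stages. In edgeR 0 of the 28 and 0 of all tested genes were called in either direction (0%). At an unadjusted p under 0.05 there were 3 of the 28 and 1783 of all genes (7.89%). By limma-voom 62 genes were called and by DESeq2 311, of which 1 each was among the 28, F630028O10Rik. Its log2 fold change was 1.39 ± 0.33 (SE), adjusted p = 0.182 in edgeR, with adjusted p of 0.0327 in limma-voom and 0.00476 in DESeq2, and between 0.00476 and 0.793 over all alternatives computed. The other entries with the largest differences towards HP were Gm43197 (edgeR, log2 fold change 1.56 ± 0.78 (SE), adjusted p = 0.711) and Gm20559 (edgeR, log2 fold change 1.31 ± 0.53 (SE), adjusted p = 0.528). Towards HE2 they were Gm13431 (edgeR, log2 fold change -0.78 ± 0.50 (SE), adjusted p = 0.870), Gm47305 (edgeR, log2 fold change -0.24 ± 0.85 (SE), adjusted p = 1.00) and Gm30918 (edgeR, log2 fold change -0.23 ± 0.55 (SE), adjusted p = 1.00). None of these passed the threshold, which does not show that their levels were equal. The fitted value was above 0 in 23 of the 28, with a median of 0.70 against 0.01 over all genes. Among the 322 matrix genes that met the rule, the HP mean was above the HE2 mean in 293 (91.0%), against 23 of the 28 (82.1%). Without HE2 replicate 2 edgeR called 525 genes and still 0 of the 28, and 67 and 59 genes without HE1 replicate 1 and replicate 2.

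Lists of related genes give the setting, beside which all tested genes were called as higher and lower in 11.5% and 17.3% (HB against ES, median log2 fold change 0.00) and in 12.7% and 8.19% (HE1 against HB, median 0.04). The list of microRNA genes holds the 1189 entries of the tables with a symbol starting with Mir, of which 1172 are of the microRNA class and 13 lncRNAs. All 1189 were outside the matrix, 119 of them reached 0.5 CPM in the 4 late libraries and 6 met the rule. Gm47305, the seventh entry of the microRNA class among the 28, has another kind of symbol, as have others of the 2207 microRNA entries outside the matrix. Of the 403 tested, 24 were called as higher (5.96%) and 41 as lower (10.2%) in HB against ES, with a median log2 fold change of -0.12, and 39 were called as higher (9.68%) and 20 as lower (4.96%) in HE1 against HB, with a median of 0.36. A list drawn up for lncRNAs of blood cells also named H19, Xist, Hotair, Bvht and Fendrr, and is not particular to blood. Of its genes, 25 were in the tables and 24 outside the matrix, 16 of these reached 0.5 CPM in the late libraries and 0 met the rule. Malat1, the most abundant, had 9539.7 and 9799 (ES), 4472 and 3805 (HB), 5079.8 and 9932 (HE1), 5976 and 2583 (HE2), 3892 and 6143 (HP) CPM. Of the 22 tested, 2 were called as higher (9.09%) and 8 as lower (36.4%) in HB against ES (median -1.04), and 9 were called as higher (40.9%) and 3 as lower (13.6%) in HE1 against HB (median 1.09).

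Among 796 genes of antigen receptor, MHC and other immune families, 697 were outside the matrix. Only 3 of these reached 0.5 CPM in the 4 late libraries, and 1, Clec7a, met the rule, while 18 of the 99 in the matrix did. Of the 116 tested, 12 were called as higher (10.3%) and 36 as lower (31.03%) in HB against ES (median -0.40), and 25 were called as higher (21.6%) and 12 as lower (10.3%) in HE1 against HB (median 0.25). All 28 regulators and surface genes of early blood were in the matrix, and 17 met the rule, among them Runx1, Spi1, Gata1 and Csf1r. Of these 28, 17 were called as higher (60.7%) and 3 as lower (10.7%) in HB against ES (median 2.95), and 11 were called as higher (39.3%) and 2 as lower (7.14%) in HE1 against HB (median 0.67). In HP against HE2 edgeR called 0 genes of each of the 4 lists, as it did of all genes. Runx1 had 2.65 and 2.69 (ES), 76.8 and 83.4 (HB), 49.96 and 66.3 (HE1), 292 and 497 (HE2), 508 and 438 (HP) CPM, and Spi1, which encodes PU.1, had 0.919 and 0.494 (ES), 4.10 and 5.55 (HB), 1.77 and 2.80 (HE1), 26.1 and 63.1 (HE2), 79.98 and 60.2 (HP) CPM. The late libraries of both were above the early ones, as for 27 of the 28 entries.

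RefSeq lists a promoter window, from 250 bases before to 50 after the start, for 6 of the 28 (9 windows, as Gm20559 has 3 and Clec7a 2), namely D030028A08Rik, F630028O10Rik, Gm28857, Clec7a, Gm20559 and Serpinb10. Windows were searched on both strands for motifs of blood factors. A gene was counted once if any of its windows held the motif. The GATA motif AGATAA was in 3 of the 6 genes, F630028O10Rik, Gm28857 and Serpinb10, and in 12.7% of all 27025 genes with a window. The RUNX motif TGTGGT was in 1, Gm28857, and in 18.9% of all. The PU.1 motif GAGGAAGT and the E-box CAGCTG were in 0 of the 6, and in 3.69% and 18.3% of all. With 6 genes these are descriptions, and a match is not a bound site. The window of F630028O10Rik (chrX:96239676-96239975, plus strand, RefSeq, GRCm38.p6) is shown as the start of the transcript with the largest ratio, with the match, TTATCT on this strand, in capitals.
F630028O10Rik: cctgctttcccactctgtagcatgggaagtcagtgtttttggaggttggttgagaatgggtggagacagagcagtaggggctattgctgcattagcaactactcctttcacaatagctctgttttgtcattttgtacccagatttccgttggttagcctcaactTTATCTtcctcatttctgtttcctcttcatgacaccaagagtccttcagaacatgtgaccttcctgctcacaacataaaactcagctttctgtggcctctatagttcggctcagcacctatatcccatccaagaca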

How the data were processed

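Per the file headers, the authors counted fragments with featureCounts (v2.0.1) on exons of Ensembl release 102 genes (GRCm38), reverse-stranded, each fragment on every gene it overlapped. The deposited counts are raw. Per the submitters' processing notes reads were aligned with HISAT2 (v2.2.1). The deposited matrix holds 1 score per stage, made by the authors from normalized counts averaged over libraries, and was used only for its gene list. CPM were computed over library totals. Symbols and classes came from GENCODE mouse release 21, which matched all 28 genes.

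Counts were analysed in R (v4.3.3) with edgeR (v4.0.16), using TMM, filterByExpr and stage as the only term, and Benjamini-Hochberg adjustment over 22596 genes. SEs were derived from the F statistic. Alternatives included limma-voom (v3.58.1) and DESeq2 (v1.42.0). Python (v3.11.15) computed positions. Simulated counts served to test the edgeR step.

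The members and lists were chosen with earlier results of these data known. Named were the 10 highest entries per kilobase, the 10 largest ratios, called entries (at most 5 per direction) or the 3 largest differences each way, list members, entries with a gene symbol, the 3 nearest each threshold and nearest matrix genes, of which some are not reported here. Other entries were named after their values were seen, so that all 28 are accounted for.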

Additional observations from a re-analysis of the deposited data

How the results depend on the processing

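The number of genes meeting the rule was 28, and 14 at a 4-fold limit. It was 33 with CPM on TMM library sizes, which kept all 28, and 27 to 33 without 1 library. A choice made after seeing the data, Gm9025 counted once and Gm47305 left out, gave 26. Neighbours meeting the rule numbered 10 without entries sharing exon. Exon sharing fell to 2 when 50% of the exon was required and was 11 with any annotated gene.

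With only the 4 libraries compared, the calls among the 28 were 4 in HB against ES (3 higher, 1 lower) and 3 in HE1 against HB, where 10 and 14 entries passed the filter. In the model of all stages, in which all 28 were tested and 8 and 5 called, leaving out 1 library gave 4 to 9 and 3 to 8, with 2803 to 5553 calls over all genes in HE1 against HB. Lone libraries were assumed to vary like the others. In HP against HE2, 62, 311 and 534 genes were called by limma-voom, DESeq2 and edgeR without a filter, and 1 of the 28 by each. Without 1 library the count over all genes was 0 to 525. The cause was not tested.

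Of the 6 calls in HB against ES and HE1 against HB of entries that passed the filter with only the 4 libraries compared and were called with all 10, those of Clec7a, Gm30918, Gm49553 and Hbb-bh0 held under all alternatives computed. Uncalled differences in HP against HE2 changed sign for Gm47305 (-2.33 to 1.15) and Gm30918 (-0.49 to 0.068) when a library was left out.

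Whether replicate numbers pair the libraries is not known from the labels, and the main model does not pair them. Same-numbered deviations correlated between -0.316 and 0.213 over all tested genes, which cannot exclude a pairing. A replicate block left 8, 5 and 0 calls among the 28, with 6140, 4176 and 0 over all genes. Depth limits the early levels, where several entries rest on under 10 counts.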
